A study of Macaca mulatta with 2 samples.

Results

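The potassium channel genes examined here were the 92 rows, of 16684 genes in the deposited table, whose symbol begins with KCN. The rule reads the symbol and no measured level. The data are bulk RNA-seq of optic nerves of *Macaca mulatta*, wild-type and untreated, with total RNA from 2 libraries (Rep1 and Rep2) and no other group. The methods of the study name a single 12-year-old male as the donor of the nerves, whereas the text deposited with the data speaks of different macaques, so whether the libraries share an animal is not settled. Values are TPM, a length-corrected share of all transcripts of a library scaled to the same total, which allows levels to be compared between genes. With 1 condition there is no comparison of groups and no test, and all values are descriptions of these libraries, whose spread may be biological or technical.

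Potassium channels let potassium ions leave or enter cells along their gradient and set the resting potential of neurons and glia. In a white matter tract such as the optic nerve, voltage-gated channels lie along the axon beside the nodes, where they shape the action potential. Inwardly rectifying channels of astrocytes and oligodendrocytes take up the potassium that firing axons release, together with the sodium pump and chloride cotransporters. Tandem-pore channels carry background leak current, and channels opened by calcium or sodium couple the membrane to intracellular ions. Auxiliary subunits have no pore of their own and alter the gating, number or position of the pore subunits.

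The pore-forming members share a coding feature that the rule did not use. The selectivity filter of a potassium channel, the narrow stretch that prefers potassium over sodium, is encoded by a signature of 5 codons. It was searched in frame, on the coding strand, in the longest RefSeq coding sequence of each gene in Mmul_10, as a threonine codon, any codon, a glycine codon, any codon that begins with T, and a glycine codon. Of the 92 members, 66 (71.7%) held it, against 2.64% of the 20683 protein-coding genes searched. A further 11 members, *KCNH1* to *KCNH4*, *KCNH6* to *KCNH8*, *KCNJ14* and *KCNN1* to *KCNN3*, held only a form that begins with a serine codon. Allowing all of these forms, 77 members (83.7%) and 7.10% of all genes had a match. Those 77 were all the pore-forming members, and none of the 15 auxiliary genes had a match. Tandem-pore channels carry a pair of pore loops in each subunit, and 11 of the 14 held the threonine form at least 2 times, the exceptions being *KCNK1*, *KCNK6* and *KCNK7*. A match is a description of these letters and was not tested as a site. The stretches below come from members that lead their class or stand far apart between the libraries, each 45 bases, 5′ to 3′, with the signature codons in capitals.
KCNMA1: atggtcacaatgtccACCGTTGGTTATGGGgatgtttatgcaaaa
KCNN2: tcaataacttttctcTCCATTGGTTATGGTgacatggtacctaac
KCNJ13: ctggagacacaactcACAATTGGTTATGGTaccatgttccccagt
KCNJ14: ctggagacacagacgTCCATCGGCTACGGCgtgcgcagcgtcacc
KCNA1: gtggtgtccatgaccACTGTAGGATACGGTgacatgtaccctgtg
KCNH2: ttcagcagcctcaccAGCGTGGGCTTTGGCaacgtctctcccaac
KCNK1: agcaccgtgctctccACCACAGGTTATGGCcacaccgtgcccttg

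Each stretch is coding. That of *KCNMA1* lies at chr9:60710763-60710807 on the plus strand, in coding exon 8 of 33, and that of *KCNN2* at chr6:111968342-111968386 on the plus strand, in coding exon 5 of 10. The *KCNJ13* stretch is at chr12:120202765-120202809 on the minus strand, in coding exon 1 of 2. For *KCNJ14* the position is chr19:48453781-48453825 on the plus strand, in coding exon 1 of 2. *KCNA1* has it at chr11:5020580-5020624 on the plus strand, in its only coding exon, and *KCNH2* at chr3:176953058-176953102 on the minus strand, in coding exon 7 of 14. The *KCNK1* stretch spans an exon junction, within a gene that runs from 15334717 to 15388513 on chromosome 1, minus strand.

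The libraries stand far apart, and this touches every value below. For a given gene, a single Rep1 read carried the TPM of 17.2 Rep2 reads. The smallest whole read numbers that give a gene's ratio of levels are a lower bound on its reads. This bound covers counting error only because amplified copies are not independent molecules. Common factors of the read numbers cancel in it, so a low bound does not show few reads. The optic nerve label was met by glial markers in both libraries, yet these were lower in Rep1, where 8 of 8 oligodendrocyte, 7 of 7 astrocyte, 5 of 5 endothelial, 6 of 6 mural and 4 of 4 fibroblast markers stood below Rep2, and 5 of 6 microglial markers did. Over all 14693 genes above 0, 75.9% were also higher in Rep2, with a median difference (Rep1 minus Rep2) of -1.07 on the log2(TPM + 1) scale. Oligodendrocyte markers summed to 46086 (Rep1) and 212682 TPM (Rep2), and astrocyte markers to 1098 and 7321 TPM. Photoreceptor markers went the other way, 9 of 10 being higher in Rep1, with sums of 3689 TPM in Rep1 against 8.33 TPM in Rep2, and only *CRX* listed at 0, in Rep2. Neuron markers summed to 2047 (Rep1) and 119 TPM (Rep2), and 3 of the 6 were higher in Rep1, while *SLC17A6* was listed at 0 in both and *POU4F1* at 0 in Rep1. In bulk tissue, fewer cells of a type and less RNA per cell cannot be told apart, and the part of these marker shifts in the channel values was not tested.

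Potassium channel genes were low as a family. Of the 92, 48 were above 0 in both libraries (52.2%, against 60.9% of all listed genes), 30 were above 0 in Rep2 alone (32.6%, against 26.6%), and 5 in Rep1 alone. That last share, 5.43%, compares with 0.545% over all listed genes, and the 5 were *KCNA3*, *KCNA4*, *KCNJ3*, *KCNJ6* and *KCNK7*. The 9 genes listed at 0 in both (9.78%, against 11.9%) were *KCNA7*, *KCNA10*, *KCNJ4*, *KCNJ5*, *KCNK15*, *KCNK16*, *KCNU1*, *KCNV1* and *KCNV2*. A mean of at least 1 TPM was reached by 46 members (50.0%, against 70.5%) and a mean of at least 10 TPM by 13 (14.1%, against 43.3%). The median of the 83 members above 0 in at least 1 library was 1.36 TPM, where the 14693 such genes of the table had 9.55 TPM. A 0 in Rep1 was common at these levels and does not show absence. Among members between 1 and 5 TPM in Rep2, 9 of 22 were listed at 0 in Rep1, as were 50.8% of all 2718 genes in that range, and between 0.1 and 1 TPM it was 16 of 27 members and 75.3% of 1995 genes.

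**Figure D1:**
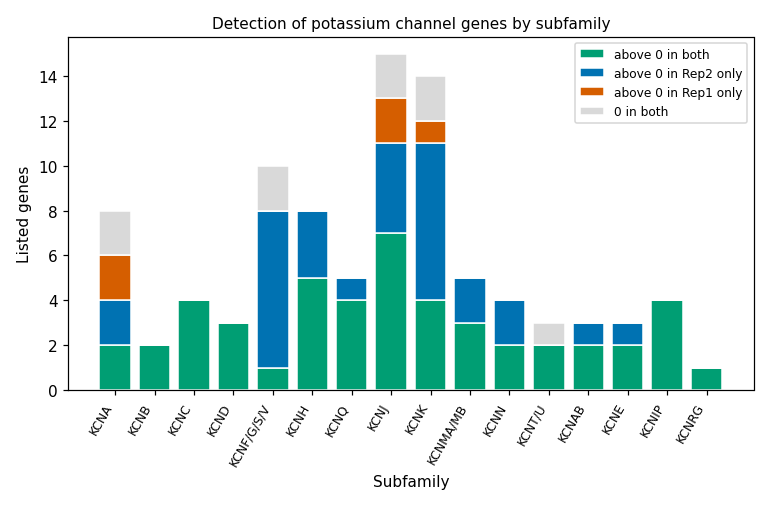
Number of listed potassium channel genes in each subfamily (y axis, genes; x axis, subfamily), stacked by whether their TPM is above 0 in both libraries, in Rep2 only, in Rep1 only or in neither. All 4 KCNC, 3 KCND and 4 KCNIP genes are above 0 in both libraries, whereas of the 10 KCNF, KCNG, KCNS and KCNV genes only 1 is.

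*KCNMA1* had the highest mean of the family, followed by *KCNK1*, *KCNJ13*, *KCNAB1* and *KCNN2*. This order is weak. Of the 24 pairs of neighbours among the 25 highest members, all 24 differed by less than 1 SD of a single library on the log2(TPM + 1) scale, where that SD came from the 200 genes nearest in mean level. In only 3 of those pairs, *KCNN2* over *KCNA1*, *KCNA2* over *KCNH2* and *KCNJ14* over *KCNA3*, did both libraries give the order of the means. A wider step was clearer, since *KCNMA1* (261 TPM in Rep1, 14.8 TPM in Rep2) was above *KCNJ16* (0 and 2.31 TPM) in both libraries. Their means over the libraries differed by 5.15 on the log2(TPM + 1) scale (3.88 SDs). That pair was the widest, in SDs, of those set against *KCNMA1*. The 10 highest members of Rep1 and of Rep2 had 4 genes in common, *KCNAB1*, *KCNJ13*, *KCNK1* and *KCNMA1*. Between the libraries, the log2(TPM + 1) levels of the 83 members above 0 correlated across genes with r = 0.510 (Pearson) and rho = 0.351 (Spearman), and those of all 14693 genes with 0.708 and 0.719. These sets were not matched for level, the median being 1.36 TPM for the members and 9.55 TPM for all genes. Genes are not independent replicates, and the points share the libraries.

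**Figure D2:**
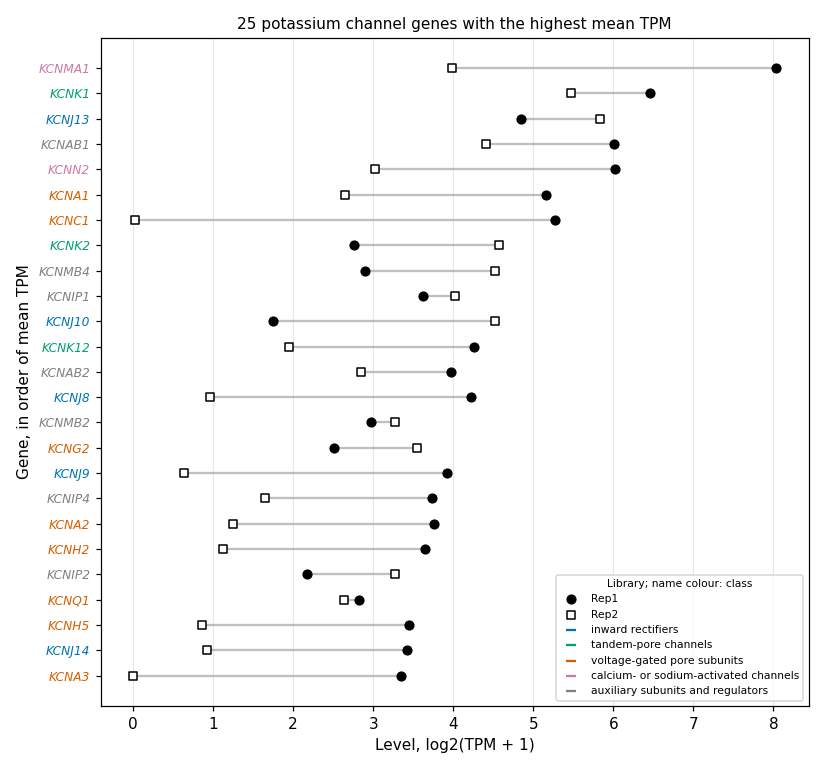
Levels of the 25 potassium channel genes with the highest mean TPM, as log2(TPM + 1) on the x axis, ordered by mean on the y axis, with filled circles for Rep1, open squares for Rep2 and the name coloured by class. *KCNMA1* leads in Rep1 at 261 TPM and *KCNJ13* in Rep2 at 55.8 TPM, and the grey lines that join the libraries are shortest for *KCNQ1*, *KCNMB2* and *KCNIP1*.

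Among the 15 inward rectifiers, *KCNJ13* was highest in each library. *KCNJ10* had the next mean through Rep2, while in Rep1 it stood below *KCNJ8*, *KCNJ9*, *KCNJ14* and *KCNJ3*. *KCNJ13*, whose channel lies in the apical membrane of the retinal pigment epithelium, stood at 27.9 TPM in Rep1 against 55.8 TPM in Rep2, a mean of 41.8 ± 19.8 TPM (SD, n = 2), at percentile 77.1 of genes above 0. It rested on at least 31 and 1067 reads and was the highest potassium channel gene of Rep2. The gene lies at 120198290 to 120208635 on chromosome 12 (minus strand), within *GIGYF2* on the opposite strand, which stood at 110 and 91.4 TPM, and although their exons do not overlap, unspliced *GIGYF2* reads could not be told from *KCNJ13* reads without strand. Of 8 pigment epithelium markers, a list added after the values were seen, 6 were higher in Rep2, as were 75.9% of all genes above 0. Their sums were 105 (Rep1) and 98.1 TPM (Rep2). Most of the sum was *RLBP1* in Rep1 (76.7 and 6.12 TPM) and *TTR* in Rep2 (18.6 and 59.0 TPM). *RPE65* was at 6.05 and 13.1 TPM, *PMEL* at 1.09 and 10.4 TPM, and *BEST1* at 2.6998 and 2.01 TPM. *LRAT*, *RGR* and *TYRP1* were listed at 0 in Rep1. The part of these markers in the level of *KCNJ13* was not tested.

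*KCNJ10*, the main inward rectifier of astrocytes and oligodendrocytes, stood at 2.35 TPM in Rep1 against 22.03 TPM in Rep2, on at least 7 and 1128 reads. Its mean was 12.2 ± 13.9 TPM (SD, n = 2), at percentile 54.4. The difference (Rep1 minus Rep2) was -2.78 on the log2(TPM + 1) scale, and over the 7 astrocyte markers it had a median of -2.53, from -6.55 for *AQP4* to -0.96 for *SLC1A2*, whose part in the level of *KCNJ10* was not tested. *KCNJ16*, which forms mixed channels with *KCNJ10*, was at 2.31 TPM in Rep2 and not above 0 in Rep1. The strong rectifiers *KCNJ2* (1.12 and 5.59 TPM in Rep1 and Rep2) and *KCNJ12* (1.04 and 6.26 TPM) were also higher in Rep2.

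A second set of inward rectifiers was higher in Rep1. *KCNJ8*, the pore of the ATP-sensitive channel of pericytes and vascular smooth muscle, stood at 17.7 (Rep1) and 0.953 TPM (Rep2), on at least 13 and 12 reads. The 6 mural markers went the other way and summed to 220 TPM in Rep1 against 1187 TPM in Rep2. *KCNJ14* was at 9.75 and 0.889 TPM on at least 30 and 47 reads. *KCNJ9* and *KCNJ3*, subunits of the channels that G proteins open in neurons, were at 14.2 and 6.31 TPM in Rep1 and at 0.551 TPM and listed at 0 in Rep2. *KCNJ9* rested on as few as 3 and 2 reads, and its exons overlap those of *IGSF8* on the opposite strand, at 1.16 and 26.3 TPM. The remaining *KCNJ1*, *KCNJ6*, *KCNJ11* and *KCNJ15* did not pass 0.589 TPM in either library, and *KCNJ4* and *KCNJ5* were listed at 0 in both.

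*KCNK1* made up most of the tandem-pore transcripts in each library, and *KCNK2* came next in Rep2 but not in Rep1. *KCNK1*, a weakly conducting background channel, stood at 87.0 (Rep1) and 43.3 TPM (Rep2), a mean of 65.1 ± 30.9 TPM (SD, n = 2) at percentile 83.8, on at least 84 and 719 reads. It ranked 2 among the potassium channel genes of each library, the only member among the highest 5 of both. *KCNK2*, a leak channel that opens with membrane stretch and polyunsaturated lipids, was at 5.76 TPM in Rep1 against 22.8 TPM in Rep2 on at least 7 and 477 reads, which gave it rank 3 in Rep2. *KCNK12*, a relative of the halothane-inhibited channel, was at 18.2 and 2.85 TPM on at least 13 and 35 reads. The exons of *KCNK12* overlap those of *LOC114671713*, a long noncoding RNA gene on the opposite strand, so its reads are uncertain. *KCNK3*, an acid-sensitive leak channel, was at 7.05 (Rep1) and 0.103 TPM (Rep2), on as few as 4 reads and 1 read. *KCNK13*, the leak channel of microglia, had 0.638 TPM in Rep2 and 0 in Rep1. Of the 6 microglial markers, *C1QA* (15.2 and 132 TPM), *C1QB* (30.3 and 173 TPM), *P2RY12* (0.725 and 14.97 TPM) and *CX3CR1* (0.947 and 4.45 TPM) were also lower in Rep1, *CSF1R* was at 61.3 and 62.2 TPM and *AIF1* at 113 and 64.5 TPM, and their part in the level of *KCNK13* was not tested. *KCNK5*, *KCNK6*, *KCNK9*, *KCNK10*, *KCNK17* and *KCNK18* were likewise above 0 in Rep2 only, the highest being *KCNK6* at 2.78 TPM. *KCNK7* was at 0.765 TPM in Rep1 and listed at 0 in Rep2.

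The 40 voltage-gated pore subunits were low, with 16 at a mean of 1 TPM or more and 2, *KCNA1* and *KCNC1*, at 10 TPM or more. *KCNA1* and *KCNA2* form the channels next to the paranodes of myelinated axons. *KCNA1* stood at 34.8 TPM in Rep1 against 5.27 TPM in Rep2 on as few as 5 and 13 reads, and *KCNA2* at 12.6 and 1.38 TPM on as few as 9 and 17 reads. Both were higher in Rep1, as were the other KCNA genes listed there, *KCNA3* at 9.15 TPM and *KCNA4* at 5.44 TPM, which were listed at 0 in Rep2. *KCNA5* and *KCNA6* had 0.201 and 0.293 TPM in Rep2 against 0 in Rep1.

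*KCNC1*, a channel of fast-spiking neurons, showed the widest step of any member, from 37.5 TPM in Rep1 to 0.0200 TPM in Rep2, on at least 109 reads and 1 read. *KCNV2*, a silent subunit of photoreceptors, was listed at 0 in both libraries. The photoreceptor markers ran in Rep1 from 1.74 TPM for *SAG*, the 1 marker higher in Rep2, to 2763 TPM for *GNAT1*. *KCNC2*, *KCNC4* and *KCNB2* stayed under 1.2 TPM, the highest of them being *KCNB2* at 1.10 TPM in Rep1.

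Of the KCNH genes, *KCNH2*, whose channel repolarises the heart, was at 11.5 TPM in Rep1 against 1.18 TPM in Rep2 on at least 38 and 67 reads. *KCNH5* was at 9.87 and 0.818 TPM on at least 26 and 37 reads, and *KCNH7* and *KCNH6* were at 1.62 and 1.30 TPM in Rep1 and at 0.0236 and 0.0378 TPM in Rep2. *KCNH3* went the other way, with 0 in Rep1 and 7.08 TPM in Rep2. Its exons overlap those of *MCRS1* on the opposite strand (230 and 56.3 TPM). They also overlap those of the protein-coding *LOC107000856* on the same strand, so its reads are uncertain. *KCNH1*, *KCNH4* and *KCNH8* stayed under 0.8 TPM in each library, the highest value being 0.755 TPM.

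The KCNQ genes encode the slow, muscarine-sensitive brake on firing and its relatives in epithelia and heart, and those described here were low. *KCNQ1* was at 6.07 (Rep1) and 5.22 TPM (Rep2), a mean of 5.65 ± 0.595 TPM (SD, n = 2). *KCNQ3*, a subunit of axons, was at 0.631 and 0.899 TPM. *KCNQ5* was at 0.373 TPM in Rep2 with 0 in Rep1. The rapidly inactivating *KCND1*, *KCND2* and *KCND3* were above 0 in both libraries, with *KCND1* at 0.299 and 4.05 TPM, *KCND2* at 1.73 and 1.11 TPM and *KCND3* at 2.55 and 1.52 TPM. Among the silent subunits, which do not conduct alone, *KCNG2* was highest at 4.70 TPM in Rep1, where it rested on as few as 1 read, and 10.7 TPM in Rep2. In Rep2 *KCNS3* and *KCNF1* reached 1.87 and 1.51 TPM, both being 0 in Rep1, and *KCNG1*, *KCNG3*, *KCNG4*, *KCNS1* and *KCNS2* were under 0.8 TPM.

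Among the 8 genes grouped by symbol as channels opened by calcium or sodium, *KCNMA1* and *KCNN2* held most of the transcripts. *KCNU1* is in this group by its symbol alone and was listed at 0 in both libraries. *KCNMA1*, the pore of the large-conductance calcium-activated channel, lies on chromosome 9 from 60112455 to 60947862 (plus strand). It stood at 261 TPM in Rep1 against 14.8 TPM in Rep2, a mean of 138 ± 174 TPM (SD, n = 2) at percentile 91.9, on at least 969 and 941 reads. It was thus the highest potassium channel gene of Rep1 and ranked 8 in Rep2, with a step of 4.06 on the log2(TPM + 1) scale. *KCNN2*, a small-conductance channel of neurons, was at 63.8 and 7.14 TPM on at least 38 and 73 reads. The other small-conductance genes were higher in Rep2. *KCNN3* was at 1.64 and 5.02 TPM, whereas *KCNN1* (2.99 TPM in Rep2) and *KCNN4* (2.72 TPM), the intermediate-conductance channel of blood cells and microglia, were listed at 0 in Rep1. The sodium-activated *KCNT1* was at 0.735 and 0.755 TPM and *KCNT2* at 0.492 and 1.04 TPM.

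All 15 auxiliary genes were above 0 in at least 1 library, 11 of them in both, and 11 (73.3%) had a mean of 1 TPM or more, near the 70.5% of all listed genes. Of the 77 pore-forming genes, 37 were above 0 in both libraries and 35 (45.5%) had such a mean, a difference that was not tested. *KCNAB1* and *KCNAB2* encode the cytoplasmic beta subunits of the KCNA channels. *KCNAB1* was at 63.2 (Rep1) and 20.3 TPM (Rep2) on at least 37 and 204 reads, and *KCNAB2* at 14.7 and 6.19 TPM on at least 14 and 101 reads. The exons of *KCNAB2* overlap those of *NPHP4* on the opposite strand, at 0 and 0.871 TPM. *KCNAB3* was at 1.85 TPM in Rep2 only, and its exons overlap those of *TRAPPC1* on the same strand, so its reads are uncertain.

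At the deposited scaling, no beta subunit of the large-conductance channel was higher in Rep1, as its pore was. *KCNMB4*, the neuronal and glial form, was at 6.45 TPM in Rep1 against 21.96 TPM in Rep2 on at least 17 and 994 reads. *KCNMB2* was at 6.84 and 8.68 TPM on as few as 5 and 109 reads. After median-of-ratios scaling, the log2(TPM + 1) difference (Rep1 minus Rep2) was -0.53 for *KCNMB4* and 0.75 for *KCNMB2*. *KCNMB1*, the smooth muscle form, was at 1.17 TPM and *KCNMB3* at 0.842 TPM in Rep2, and both were listed at 0 in Rep1. A 0 in Rep1 is common at such levels, so the order of *KCNMB1* and *KCNMB3* between the libraries is not settled. In Rep2 *KCNMB4* was thus above *KCNMA1*, and in Rep1 it was far below. The KCNIP genes, calcium-binding partners of the KCND channels, were all above 0 in both libraries, with *KCNIP1* at 11.3 and 15.2 TPM, *KCNIP2* at 3.50 and 8.62 TPM, *KCNIP3* at 1.08 and 2.21 TPM and *KCNIP4* at 12.3 and 2.14 TPM. The KCNIP values sum to 28.2 TPM in each library. *KCNIP4* rested on as few as 1 and 3 reads, and its exons overlap those of *PACRGL*. Of the KCNE genes, small single-pass subunits, *KCNE4* was at 3.004 and 5.19 TPM, *KCNE3* at 4.97 and 1.35 TPM and *KCNE1* at 0.845 TPM in Rep2 only. *KCNRG*, a soluble regulator of channel assembly, was at 0.627 and 2.04 TPM.

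By class, the make-up of the potassium channel transcripts differed between the libraries. The 92 genes summed to 807 (Rep1) and 354 TPM (Rep2). Channels opened by calcium or sodium held 40.7% of that sum in Rep1 and 9.74% in Rep2, and *KCNMA1* alone held 32.4% and 4.18%. Inward rectifiers held 9.98% in Rep1 and 26.9% in Rep2, tandem-pore channels 14.7% and 21.2%, voltage-gated pore subunits 18.8% and 14.2%, and auxiliary genes 15.9% and 27.9%. Rep1 was the more concentrated library, its 5 highest members holding 63.5% of the sum against 46.9% in Rep2.

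**Figure D3:**
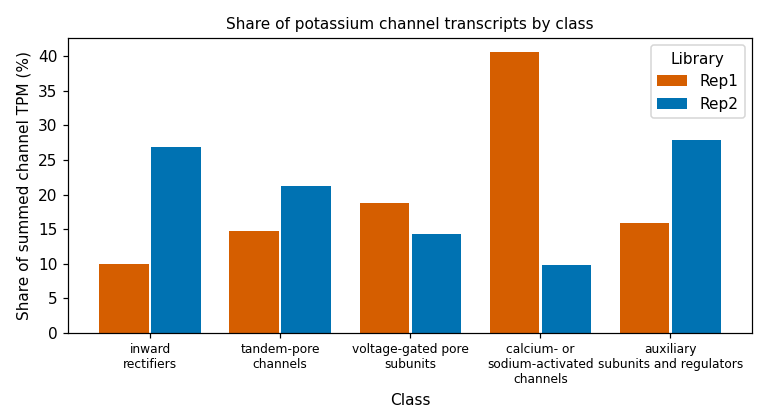
Share of the summed TPM of the 92 potassium channel genes held by each class (y axis, percent; x axis, class), with a bar for each library. The bar for channels opened by calcium or sodium is at 40.7% in Rep1 and 9.74% in Rep2, and that for inward rectifiers at 9.98% and 26.9%.

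Set against each other gene by gene, 22 of the 83 members above 0 (26.5%) were at least 2-fold higher in Rep1 on the log2(TPM + 1) scale, where 14.8% of the 14693 genes were. At least 2-fold higher in Rep2 were 20 (24.1%), against 51.3% of all genes. With median-of-ratios scaling, a shift of 1.19 on the log2 scale towards Rep1, the numbers were 28 and 10, beside 23.7% and 33.8% of all genes. *KCNK1* and *KCNJ13* stood just inside the limit, at 0.99 higher in Rep1 and 0.98 higher in Rep2. The median difference (Rep1 minus Rep2) was -0.22 over the 83 members and -1.07 over all 14693 genes. The lower bound on reads was uneven, being under 10 in Rep1 for 33 of the 48 members above 0 in both libraries. A low bound does not show few reads. Of the 14 members with a lower bound of at least 10 reads in both libraries, chosen after the data were seen, 10 had a 2-fold or higher level in Rep1. These included *KCNMA1*, *KCNJ8*, *KCNN2*, *KCNH5*, *KCNH2*, *KCNJ14*, *KCNK12*, *KCNAB1* and *KCNAB2*, and 1 of the 14, *KCNMB4*, was higher in Rep2. A Rep1 read is worth 17.2 Rep2 reads, so members pass this limit mainly through a high Rep1 level. The split is therefore not a separate result. Of all 4618 genes past the same limit, 38% were at least 2-fold higher in Rep1 and 30.6% in Rep2.

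**Figure D4:**
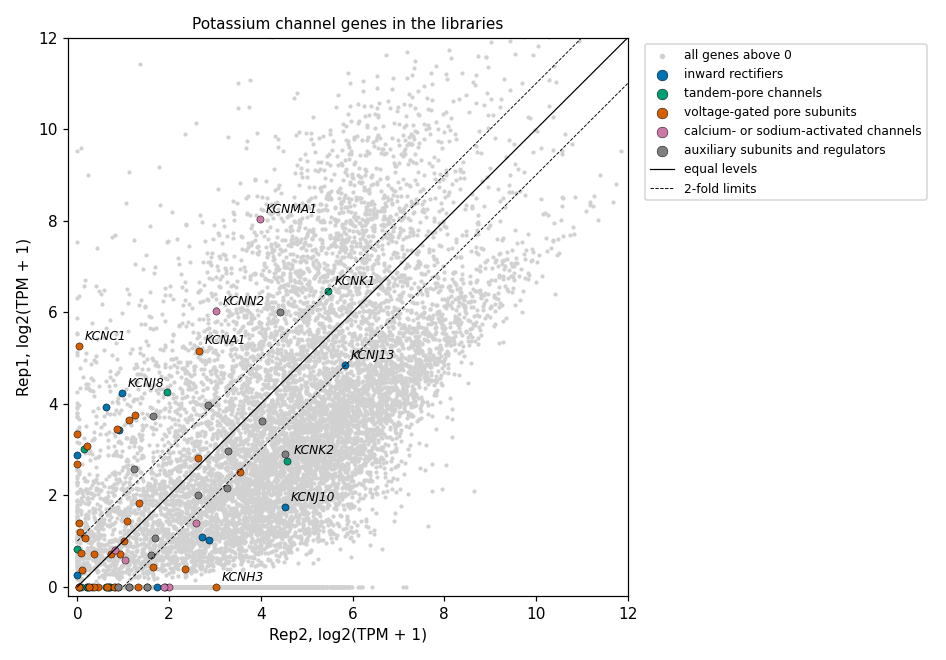
Level in Rep1 (y axis) against Rep2 (x axis), both log2(TPM + 1), for all genes above 0 in grey and the 83 potassium channel genes coloured by class, with equal levels as a solid line and 2-fold limits dashed, and axes that end at 12. *KCNMA1*, *KCNN2* and *KCNC1* lie above the upper dashed line, *KCNJ10* and *KCNK2* below the lower one, and most grey points lie below the solid line.

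The members above 0 were 36 voltage-gated pore subunits, 13 inward rectifiers, 15 auxiliary genes, 12 tandem-pore channels and 7 channels opened by calcium or sodium. In that order of classes, the 22 higher in Rep1 comprised 10, 4, 4, 2 and 2 genes. The 20 higher in Rep2 comprised 6, 4, 4, 3 and 3 genes. Over all 83 members the shares were 26.5% (Rep1) and 24.1% (Rep2), and no class was tested against them. Among the neuronal markers, *SNAP25* (1121 TPM in Rep1 against 4.99 TPM in Rep2) and *SYT1* (769 and 11.8 TPM) were higher in Rep1, and *RBFOX3* was at 1.64 and 1.87 TPM. What these markers contribute to the channel values was not tested.

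Genes whose products work with potassium channels were taken from a list of 34, all of them in the table. The 9 channel subunits outside the KCN names were low. *ABCC8*, the sulfonylurea receptor that joins *KCNJ11*, was at 2.93 and 5.45 TPM, and *ABCC9*, which joins *KCNJ8*, was above 0 only in Rep2 (0.923 TPM). *DPP6*, a partner of the KCND channels, was at 1.03 and 1.14 TPM, and *LRRC26*, a gamma subunit of the *KCNMA1* channel, was at 2.66 TPM in Rep2 only. *LRRC38* and *LRRC52* were listed at 0 in both libraries.

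The 13 anchoring genes were above 0 in both libraries. *CNTNAP2*, which holds the KCNA channels beside the paranode from the axonal side, was at 24.9 (Rep1) and 3.49 TPM (Rep2) on at least 49 and 118 reads, in the same order as *KCNA1* and *KCNA2*. *CNTN2*, its partner on axon and glia, was at 23.6 and 208 TPM. *DLG4*, a scaffold of synapses and of KCNA channels, was at 144 and 3.57 TPM, whereas *DLG1* (78.9 and 44.2 TPM) and *DLG2* (74.4 and 41.7 TPM) were closer. Of the complex that holds *KCNJ10* at astrocyte endfeet, *AQP4* was at 3.26 and 398 TPM and *DTNA* at 26.3 and 87.6 TPM, both higher in Rep2 as *KCNJ10* was, while *DAG1* was at 128 and 34.7 TPM.

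All 12 pumps and cotransporters were above 0 in both libraries, and 9 had a mean of 10 TPM or more, and their median of means was 61.6 TPM. *ATP1B2*, a beta subunit of the sodium pump, was at 288 and 159 TPM and *ATP1B3* at 84.8 and 436 TPM. Among the cotransporters, *SLC12A2*, which takes up potassium with sodium and chloride, was at 34.6 and 29.2 TPM, *SLC12A4* at 7.25 and 71.5 TPM, and the neuronal *SLC12A5* at 42.7 and 0.483 TPM. Over the 34 genes, 5 were at least 2-fold higher in Rep1 and 14 in Rep2, which is 15.6% and 43.8% of the 32 above 0, close to the 14.8% and 51.3% of all genes. The median difference of -0.86 turned to 0.068 after median-of-ratios scaling.

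**Figure D5:**
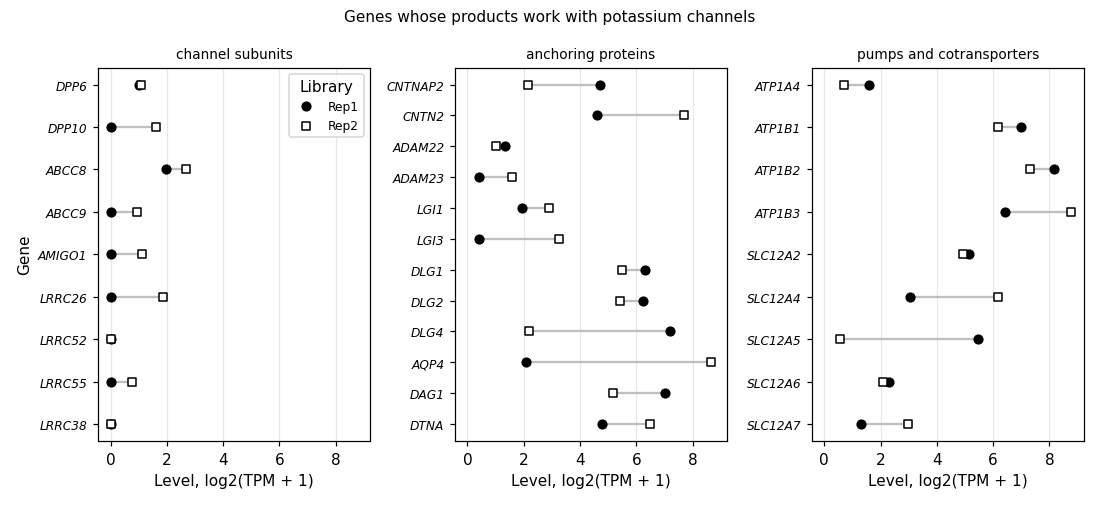
Levels of 30 of the 34 genes whose products bind or work with potassium channels, as log2(TPM + 1) on the x axis, with filled circles for Rep1 and open squares for Rep2, split into channel subunits, anchoring proteins, and pumps and cotransporters (y axis, genes). *AQP4* and *DLG4* have the longest lines, in opposite directions, and the channel subunits stay at 5.45 TPM or below.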

How the data were processed

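Total RNA of macaque optic nerve was sequenced by the authors from libraries of a low-input kit (SMARTer v4) that amplifies cDNA and does not mark strand. Reads were checked with FastQC 0.11.9, trimmed with Trim Galore 0.6.6, aligned to Mmul_10 with STAR 2.7.1a and counted per gene with featureCounts 1.5.3, per the submitters' processing notes and the methods of the study. The authors divided the counts by gene length and scaled them, and the deposited values are TPM for each library, not pooled. The gene lengths, strand setting and treatment of multiply aligned reads are not given in the sources used here, so paralogs and overlapping genes are uncertain, and the read totals are unknown. Besides the overlaps named above, exons of *KCND2*, *KCNE4*, *KCNH7*, *KCNMB3* and *KCNS1* overlap those of other genes. The columns Rep1 and Rep2 are not paired with sample titles by any label.

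Levels were used as deposited with Python 3.11, numpy 2.4.6 and pandas 2.3.3. Differences were taken on log2(TPM + 1), which understates the change of low genes. Lower bounds on reads came from the smallest whole-number ratio within a tolerance of 1e-11, which existed for 99.9% of 10168 genes above 0 in both libraries and for all 48 such members. Positions, overlaps and coding sequences came from the RefSeq annotation of Mmul_10, where all 92 symbols were found. That annotation also holds *KCNE5*, which was not analysed here. Named genes were the 25 highest means, the highest member of each subfamily, members at least 2-fold higher in Rep1 and members of textbook interest. The members and lists were chosen with earlier results of these data known. The pore signature, planned on proteins, was searched in coding sequences. The read bounds, spread and scaling were tested on simulated data. Alternatives were another pseudocount, median-of-ratios scaling, other limits on low levels and each library alone. Some genes and sequences are not reported here. No p-value was computed.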

Additional observations from a re-analysis of the deposited data

How the results depend on the processing

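No paired analysis was possible because there is only 1 condition. The number of members at a mean of 1 TPM or more, 46, was 42 after median-of-ratios scaling, ran from 41 to 42 in single libraries, and was 75 with a limit of 0.1 TPM. The median level of members, 1.36 TPM, was 1.005 TPM with the geometric mean, 1.09 TPM after median-of-ratios scaling, 1.75 TPM without the 10 most abundant genes, and 0.765 to 1.009 TPM in single libraries. The number of members higher in Rep1, 22, ran from 20 to 28 under the alternatives planned. It was 10 among members with a lower bound of at least 10 reads in both libraries. The number higher in Rep2, 20, was 37 with a pseudocount of 0.1, for which no share over all genes was computed, and 10 after median-of-ratios scaling. It was 1 among members past the same read limit. The median difference, -0.22, turned to 0.044 after median-of-ratios scaling and to 0.28 among members with a mean of at least 1 TPM. It turned to 2.41 among members past the read limit, which was added after seeing the data. The limits remove genes by construction, the read limit mainly through Rep1, and no other cause was tested. For the partner genes, the median of -0.86 turned to 0.068 after median-of-ratios scaling. For the mean TPM of the 25 highest members, 71 stayed within 1 SD and 4 moved further when another summary or scaling was used, but with 2 libraries that SD is wide, and each library always lies within it, so this says little about stability. The class shares stayed within the spread of the libraries for the same reason. The 17.2 times lower worth of a read in Rep2 leaves Rep1 as the limit on depth, where a value listed at 0 does not show absence.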

Other observations

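Some potassium channel genes lie next to one another in Mmul_10, and adjacent genes can be compared. *KCNJ9* and *KCNJ10* lie on opposite strands of chromosome 1 with 11785 bases between them. *KCNJ9* had 14.2 TPM (Rep1) and 0.551 TPM (Rep2), while *KCNJ10* was at 2.35 and 22.03 TPM, the reverse order. On chromosome 1, *KCNA3* and *KCNA2* are 45711 bases apart and were both higher in Rep1, at 9.15 and 12.6 TPM there, and *KCNA10*, next in the row, was listed at 0 in both. *KCNJ8* and *ABCC9*, which encode the pore and the receptor of 1 channel and are 23618 bases apart, were at 17.7 and 0.953 TPM and at 0 and 0.923 TPM. A 0 in Rep1 is common at such a level, so the order of *ABCC9* between the libraries is not settled. *KCNJ16* and *KCNJ2*, 33183 bases apart on chromosome 16, were at 2.31 and 5.59 TPM in Rep2. These values were taken from 12 pairs within 100 kb or overlapping, with no test.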
